A study of Mus musculus with 25 samples.

Results

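The 6 genes described here encode receptors that carry growth and survival signals in phagocyte lineages, followed across all groups of a study of mouse Peyer's patch cells: Flt3, Csf1r, Csf2rb, Csf3r, Kit and Cx3cr1. They were chosen by gene symbol, and these 6 are among 19938 genes with a value; 5 of the 6 had a value on all 25 arrays, as did 13710 genes in all. The donors were C57BL/6 females, 6 to 8 weeks old, and 42 mice were pooled for each replicate before cells were sorted from their patches. Gene expression was read on Affymetrix Mouse Gene 1.0 ST arrays, and levels are RMA signals on the log2 scale, where 1 unit is a 2-fold change.

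All mice were labelled WT. Untreated mice gave CD11b+ conventional dendritic cells (cDC, 5 arrays), CD8a+ cDC (3 arrays), double-negative cDC (DN, 3 arrays, without CD11b, CD8a or CD4), and LysoMac, the lysozyme-expressing macrophages of the patch, as TIM-4- (3 arrays) and TIM-4+ cells (3 arrays). Mice taken 9 h after gavage of R848, a ligand of TLR7, gave CD11b+ cDC (3 arrays) and CD8a+ cDC (5 arrays); titles of these 8 arrays also carry the words steady state, and the treatment label was followed. All cells were enriched on CD11c beads and sorted as CD11c-high. The cDC were MHC class II positive and negative for BST2 and CD4, and SIRPa was part of the gate for the CD11b+ and DN groups, with CD8a+ cDC taken as SIRPa negative. LysoMac were low in MHC class II and positive for SIRPa, BST2 and CD4. Because these are bulk samples, fewer cells of a type and less RNA per cell cannot be told apart.

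Flt3 is the receptor for Flt3 ligand, which drives the production of dendritic cells from bone marrow precursors. Csf1r, the receptor for CSF-1 and IL-34, sustains macrophages and monocytes, and Csf3r is the receptor for G-CSF, best known in neutrophils. Csf2rb is the common beta chain shared by the receptors for GM-CSF, IL-3 and IL-5. Kit is the receptor for stem cell factor and marks progenitors, mast cells and some innate lymphoid cells. Cx3cr1, the fractalkine receptor, is a chemokine receptor that supports the survival of monocytes and gut macrophages. Flt3, Csf1r and Kit are tyrosine kinases of 1 family. Csf2rb and Csf3r are cytokine receptors that signal through JAK kinases, and Cx3cr1 couples to Gi proteins.

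The columns of the deposited table came in 3 row orders, and rows of the untreated arrays were matched to the named rows of the R848 arrays by order and level. Untreated CD11b+ cDC, DN cDC and LysoMac formed one array set, untreated CD8a+ cDC another, and the R848 arrays the remaining one. Every comparison that crosses these sets cannot be told apart from a difference between sets; this holds for untreated CD8a+ cDC against any other group and for both R848 responses. The median of all genes differed across sets, by -0.19 for CD8a+ against CD11b+ cDC, 0.16 for DN against CD8a+ cDC, 0.18 for the R848 response of CD8a+ cDC and 0.21 for the difference between both responses. Csf2rb had no accepted row in the array set that holds LysoMac, so it has 11 arrays with values. Array medians lay between 4.29 and 4.60, and arrays of a group correlated at 0.971 or higher. The sorted types were checked against marker genes: in LysoMac against CD11b+ and DN cDC, 3 of 6 macrophage markers were higher, led by Msr1 (5.20 ± 0.27) and Mertk (5.17 ± 0.13), and 1 was lower, while Siglec1 was near 4 in every group. Of 10 cDC markers 9 were lower in LysoMac. The list includes the MHC class II genes H2-Aa, H2-Ab1 and H2-Eb1, and MHC class II was part of the sort. These genes are thus not an independent check. Untreated CD8a+ cDC were higher than CD11b+ cDC for 4 of 5 cDC1 markers, with Xcr1 at 7.00 ± 0.12, while Batf3 was not higher (means of 8.39 and 8.90). The row of Xcr1 was not accepted under stricter row matching in either untreated set.

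Where the members move together, the sequence before the gene can be set beside the levels. RefSeq promoter windows (GRCm38.p6, 250 bases before to 50 bases after the annotated start) were used for 4 of the 6 genes. Windows on a chromosome that the search left out were not used, and Csf1r and Csf2rb were not searched. Kit had 2 annotated starts, and the window of the first listed was used. Flt3 and Kit are the pair that was high in every untreated cDC group, and Csf3r and Cx3cr1 the pair that was high in LysoMac. Capitals mark GAGGAA, the core bound by PU.1, the myeloid factor encoded by Spi1, searched on both strands (TTCCTC on the other). The windows are Flt3 at chr5:147400440-147400739 (minus strand), Kit at chr5:75574737-75575036 (plus strand), Csf3r at chr4:126024409-126024708 (plus strand) and Cx3cr1 at chr9:120068247-120068546 (minus strand), each printed in the direction of transcription.
Flt3: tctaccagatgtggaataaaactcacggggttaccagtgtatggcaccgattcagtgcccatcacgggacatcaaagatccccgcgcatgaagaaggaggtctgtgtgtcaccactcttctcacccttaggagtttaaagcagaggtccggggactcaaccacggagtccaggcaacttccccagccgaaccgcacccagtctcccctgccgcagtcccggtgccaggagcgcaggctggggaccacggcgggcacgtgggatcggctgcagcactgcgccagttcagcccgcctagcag
Kit: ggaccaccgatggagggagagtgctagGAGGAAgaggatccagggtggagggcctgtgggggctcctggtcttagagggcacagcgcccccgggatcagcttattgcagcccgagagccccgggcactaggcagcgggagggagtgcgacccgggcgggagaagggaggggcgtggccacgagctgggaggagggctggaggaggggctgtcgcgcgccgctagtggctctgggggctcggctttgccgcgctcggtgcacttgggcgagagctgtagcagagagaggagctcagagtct
Csf3r: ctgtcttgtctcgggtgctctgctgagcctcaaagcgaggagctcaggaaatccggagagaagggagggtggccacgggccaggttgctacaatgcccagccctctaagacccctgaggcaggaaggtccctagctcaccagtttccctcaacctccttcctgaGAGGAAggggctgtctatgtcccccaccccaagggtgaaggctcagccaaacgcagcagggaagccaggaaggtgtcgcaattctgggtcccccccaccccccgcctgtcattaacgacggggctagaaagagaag
Cx3cr1: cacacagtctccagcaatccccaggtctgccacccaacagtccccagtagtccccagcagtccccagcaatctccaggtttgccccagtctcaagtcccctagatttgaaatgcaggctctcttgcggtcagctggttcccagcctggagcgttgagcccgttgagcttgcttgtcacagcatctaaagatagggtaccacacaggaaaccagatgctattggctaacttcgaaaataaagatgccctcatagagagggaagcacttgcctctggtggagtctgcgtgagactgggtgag

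The motif occurred once in the Kit window, at bases -223 to -218 from the start, and once in the Csf3r window, at bases -86 to -81. Neither the Flt3 nor the Cx3cr1 window held it. Of all promoter windows of this length, 28.3% held it on either strand. Kit and Csf3r, which share the motif, had opposite patterns across LysoMac and cDC.

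The levels of all receptors in each group are shown array by array.

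**Figure D1:**
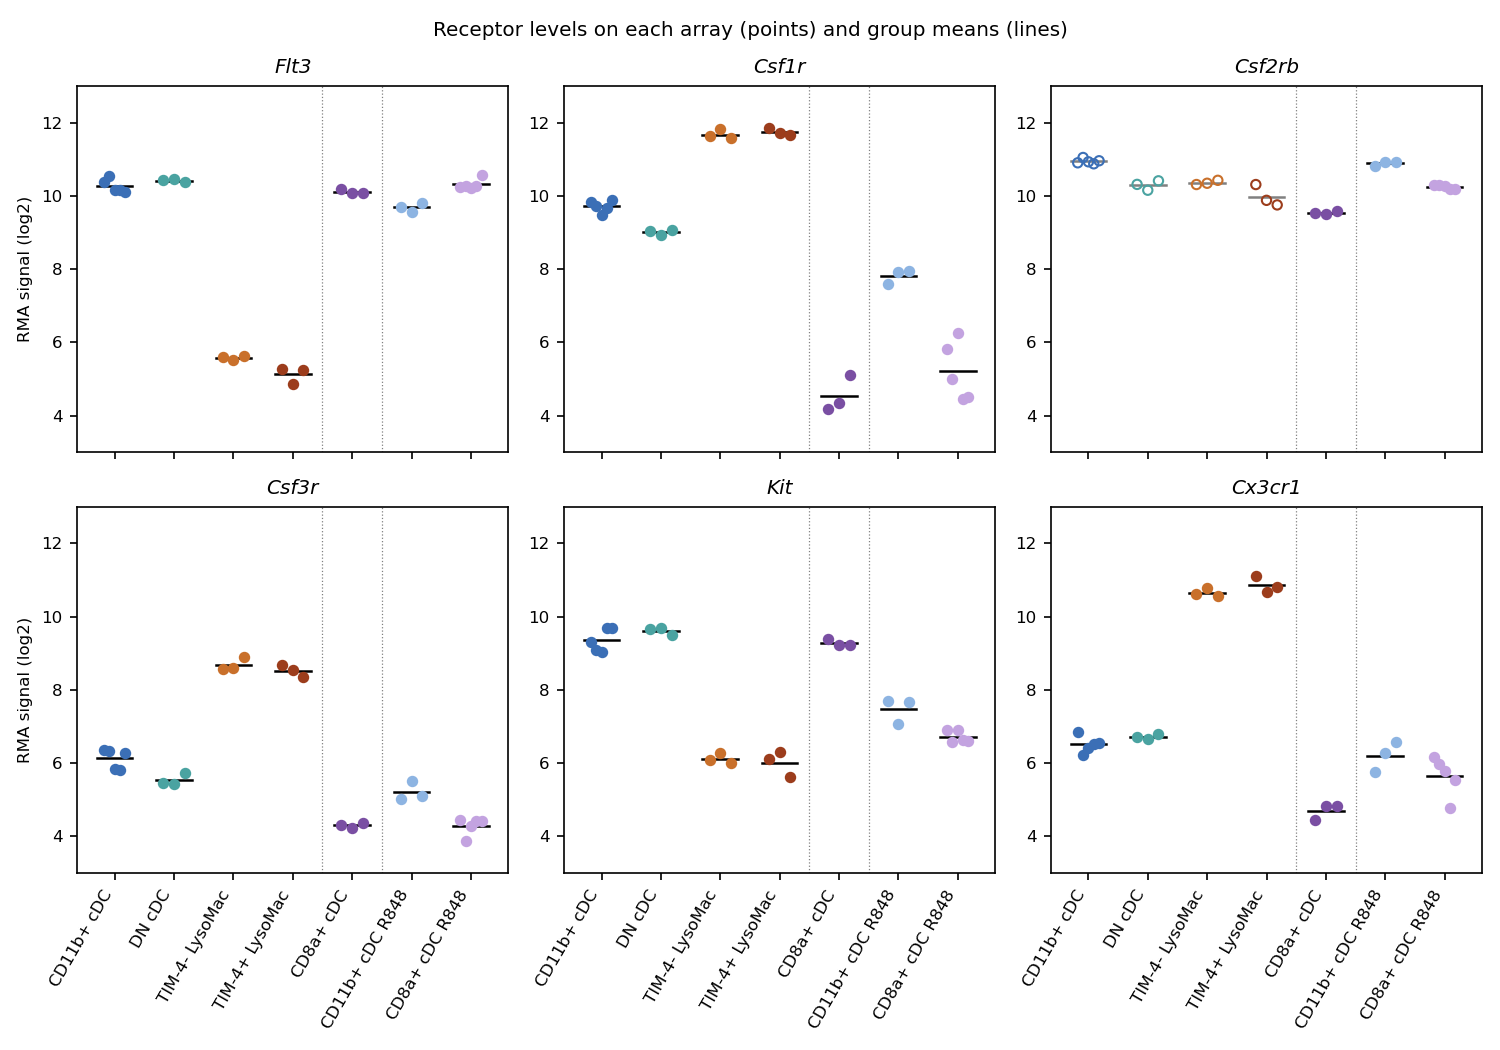
RMA signal (log2, y axis) of each receptor on every array (points) in the 7 groups (x axis), with the group mean as a line; dotted lines separate the 3 array sets, and open points for Csf2rb come from a looser row match. Flt3 lies between 9.56 and 10.57 in all cDC groups and at 5.64 or lower in LysoMac, while Csf1r, Csf3r and Cx3cr1 are highest in LysoMac.

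Flt3 was high in every cDC group and low in both LysoMac groups. The 5 CD11b+ cDC arrays read 10.39, 10.53, 10.15, 10.17 and 10.11, and the 3 DN arrays 10.42, 10.45 and 10.38. Untreated CD8a+ cDC read 10.19, 10.08 and 10.07. TIM-4- LysoMac read 5.61, 5.51 and 5.64, and TIM-4+ LysoMac 5.27, 4.86 and 5.25. No LysoMac array came near a cDC array. From the highest group mean down, the order was DN cDC (10.42), CD8a+ cDC after R848 (10.31), CD11b+ cDC (10.27) and CD8a+ cDC (10.11), neighbours whose arrays overlapped and whose differences did not pass the test. CD11b+ cDC after R848 followed at 9.69, lower than untreated CD8a+ cDC by 0.42 ± 0.12 (adjusted p = 0.00629), and then TIM-4- LysoMac at 5.59 and TIM-4+ LysoMac at 5.13.

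Kit, the other tyrosine kinase receptor that was high in every untreated cDC group, had a wider spread among cDC. Untreated CD11b+ cDC read 9.30, 9.07, 9.03, 9.70 and 9.70, DN cDC 9.65, 9.68 and 9.50, and CD8a+ cDC 9.40, 9.23 and 9.22. Neighbours in the order of these 3 groups overlapped and did not pass the test, although every DN array lay above every CD8a+ array. CD11b+ cDC after R848 read 7.71, 7.07 and 7.66, and CD8a+ cDC after R848 read 6.91, 6.56, 6.90, 6.63 and 6.60. Both R848 groups lay below every untreated cDC array and above all LysoMac arrays, which read 6.09, 6.27 and 5.99 (TIM-4-) and 6.12, 6.30 and 5.61 (TIM-4+). Each further step down passed the test except that between both LysoMac groups. Kit also marks mast cells and innate lymphoid cells. The mean of 7 mast cell and basophil markers ranged from 3.59 to 3.97 over all arrays, and the mast cell protease genes Cpa3 and Mcpt4 had group means between 3.06 and 3.40. Of 6 markers of innate lymphoid and NK cells, 4 were lower in LysoMac than in CD11b+ and DN cDC, as Kit was, and 0 higher. Il7r, the IL-7 receptor alpha chain, had means of 6.57 in CD11b+ cDC and 8.01 in DN cDC against 4.21 in TIM-4- and 3.79 in TIM-4+ LysoMac, and Klrk1 had 6.45 and 5.40 against 3.75 and 3.62. Nkg7 (-1.61 ± 0.29) and Gata3 (-0.38 ± 0.09) were the others called, while Ncr1 had means between 3.17 and 3.45 in the groups with a value. In CD11b+ cDC after R848, where Kit was lower, the mean of Il7r was 10.29. The mean of the 4 markers with values on all arrays was 4.43 to 5.42 on cDC arrays and 4.17 or lower on LysoMac arrays. The part of these markers in the levels of Kit was not tested.

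Csf1r spanned the widest range of the 5 genes with values on all arrays. TIM-4- LysoMac read 11.64, 11.82 and 11.57, and TIM-4+ LysoMac 11.84, 11.73 and 11.65, so both groups overlapped. CD11b+ cDC read 9.84, 9.72, 9.48, 9.67 and 9.90, and DN cDC 9.05, 8.92 and 9.08. These cDC groups did not overlap, but their difference of 0.71 ± 0.29 did not pass the test (adjusted p = 0.204). Untreated CD8a+ cDC stood far below at 4.19, 4.34 and 5.10. After R848, CD11b+ cDC read 7.60, 7.92 and 7.94, between both untreated cDC levels, and CD8a+ cDC read 5.81, 5.00, 6.25, 4.47 and 4.52, overlapping the untreated CD8a+ arrays.

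Csf3r was also highest in LysoMac. TIM-4- LysoMac read 8.57, 8.59 and 8.90 and TIM-4+ LysoMac 8.67, 8.55 and 8.35. CD11b+ cDC read 6.36, 6.34, 5.85, 5.83 and 6.28, and DN cDC were lower at 5.45, 5.43 and 5.72. CD8a+ cDC had the lowest level, at 4.32, 4.22 and 4.37 untreated and at 4.44, 3.86, 4.29, 4.43 and 4.43 after R848, and both CD8a+ groups overlapped. CD11b+ cDC after R848, at 5.02, 5.50 and 5.11, overlapped DN cDC, and that step of the order did not pass the test (adjusted p = 0.128). Csf3r is best known in neutrophils. Ly6g, the marker that defines mouse neutrophils, had group means between 2.74 and 3.05, and the mean of 6 neutrophil markers lay between 3.31 and 4.47 on all arrays. Of 8 neutrophil markers tested in LysoMac against CD11b+ and DN cDC, S100a8 was higher, as Csf3r was (1.67 ± 0.39, adjusted p = 0.00182), with means of 7.18 in TIM-4- and 5.29 in TIM-4+ LysoMac against 4.34 in CD11b+ and 4.79 in DN cDC, and Cxcr2 was lower (-0.99 ± 0.10). Their part in the level of Csf3r was not tested.

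Cx3cr1 separated LysoMac from cDC as clearly. TIM-4- LysoMac read 10.62, 10.78 and 10.57 and TIM-4+ LysoMac 11.12, 10.68 and 10.80. CD11b+ cDC read 6.84, 6.23, 6.40, 6.52 and 6.56, DN cDC 6.72, 6.65 and 6.80, and CD11b+ cDC after R848 5.77, 6.28 and 6.57. These 3 cDC groups overlapped their neighbours, and no step among them passed the test. CD8a+ cDC were lowest, at 4.45, 4.83 and 4.83 untreated and at 6.17, 5.97, 5.79, 4.77 and 5.53 after R848. The fourth R848 array thus lay inside the untreated range.

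Csf2rb could be read in 3 groups under the main row match. Untreated CD8a+ cDC read 9.53, 9.51 and 9.59, CD11b+ cDC after R848 10.83, 10.91 and 10.93, and CD8a+ cDC after R848 10.29, 10.31, 10.27, 10.19 and 10.19. The 3 groups did not overlap. A looser row match, added after the missing row was seen, gave 10.88 to 11.05 in untreated CD11b+ cDC, 10.16 to 10.41 in DN cDC, 10.31 to 10.43 in TIM-4- LysoMac and 9.75 to 10.31 in TIM-4+ LysoMac. Under that match LysoMac against CD11b+ and DN cDC was -0.45 ± 0.07 (adjusted p = 1.25e-05). The R848 response of CD11b+ cDC was -0.05 ± 0.09 (adjusted p = 0.677). The response of CD8a+ minus that of CD11b+ cDC was 0.76 ± 0.13 (adjusted p = 0.000108). Csf2rb has a near-identical copy in the mouse, Csf2rb2, and how far their probes share signal was not tested.

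The first comparison asked how the receptors differ between LysoMac and cDC. Inside 1 array set, against CD11b+ and DN cDC, Flt3 was 31.7-fold lower in LysoMac (-4.99 ± 0.08, adjusted p = 1.91e-21) and Kit 10.7-fold lower (-3.42 ± 0.13, adjusted p = 2e-15). Cx3cr1 was 17.6-fold higher (4.14 ± 0.17, adjusted p = 7.32e-15), Csf3r 6.83-fold higher (2.77 ± 0.11, adjusted p = 8.23e-15) and Csf1r 5.06-fold higher (2.34 ± 0.22, adjusted p = 9.44e-09). All 5 members tested were called, 3 higher and 2 lower, where 31.2% of 16027 genes were called, 14.6% as higher and 16.6% as lower, and no array of one side overlapped the other. The share of all genes called is thus large, and the sizes say more than the count: the median of all genes was 0.00, and 5 members differed by 2.34 or more. Against all 11 cDC arrays, CD8a+ cDC included, the same members were called in the same directions (42.8% of 13710 genes called, 26.7% as higher and 16% as lower), with Csf1r at 3.95 ± 0.20 and Csf3r at 3.28 ± 0.11, and both were lowest in CD8a+ cDC.

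Other chains that pair with these receptors, or belong to related ones, were compared in the same way. Ccr2, the chemokine receptor that lets monocytes leave the bone marrow, was higher in LysoMac by 3.90 ± 0.10. The row of Ccr2 in this array set was not accepted under stricter row matching, nor in a match on the means of all arrays. Ccr2 is also on the list of monocyte markers, whose other genes with a value were not higher. Plac8 was lower in LysoMac (-4.80 ± 0.32, from a row not accepted under stricter row matching), and Chil3 (-0.03 ± 0.08) and Vcan (0.07 ± 0.09) did not pass the test. Csf2ra, the alpha chain that gives the GM-CSF receptor its specificity, was higher by 0.92 ± 0.11, and Csf2rb2, the mouse IL-3 receptor beta chain, by 0.82 ± 0.12. Il6st, the shared chain gp130 of the IL-6 family, was lower, at -1.24 ± 0.07, and the platelet-derived growth factor receptors Pdgfra (-0.37 ± 0.08) and Pdgfrb (-0.27 ± 0.06) were lower too. Il5ra was at -0.01 ± 0.07 and did not pass the test. Pdgfra and Pdgfrb belong to the list of stromal and endothelial markers, of which 8 of 10 were lower and 1 higher in LysoMac than in CD11b+ and DN cDC, with mean levels of 6.97 to 7.33 in DN cDC against 3.89 to 5.08 in CD11b+ cDC and 4.29 to 6.09 in LysoMac. Their part in these differences was not tested.

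Signalling genes below the receptors split in both directions, and their counts are to be read against the 14.6% of all genes called higher and the 16.6% called lower in this comparison. Of 19 genes of receptor tyrosine kinase signalling with a value, 3 were higher and 8 lower in LysoMac (median of the list -0.23, of all genes 0.00). Gab3, an adaptor of the CSF-1 receptor pathway, was higher by 2.31 ± 0.14 and the exchange factor Vav1 by 1.09 ± 0.10, while Cblb, a ubiquitin ligase that limits receptor kinases, was lower (-1.43 ± 0.09), as was Pik3r5, a regulatory subunit of PI3K gamma (-0.73 ± 0.08). After cyclic loess that list had 5 higher and 4 lower of 18. JAK-STAT genes had 4 of 13 higher and 6 lower, with Jak2, the kinase of the GM-CSF receptor, at -2.46 ± 0.09, the kinase Pim1 at -2.34 ± 0.19, Stat5a at -1.23 ± 0.12 and the inhibitor Socs3 2.64-fold higher. Feedback and immediate targets of ERK had 5 of 13 higher and 5 lower: the phosphatase Dusp6 was higher (2.30 ± 0.35), and Dusp5 (-2.11 ± 0.12), Fos (-1.89 ± 0.22) and Egr1 (-1.80 ± 0.12) were lower.

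Around the chemokine receptor, 3 of 13 genes of Gi signalling were higher and 6 lower in LysoMac (14.6% and 16.6% of all genes), the count of higher genes being near the share of all genes. The median of the list was -0.13, and that of all genes 0.00. Rgs18 (-3.46 ± 0.18) and Rgs2 (-1.41 ± 0.10), which switch G proteins off, and the gamma subunit Gng10 (-1.65 ± 0.12) were lower, and Arrb1, which encodes beta-arrestin 1 and ends receptor signalling, was higher (2.03 ± 0.13). Of 15 transcription factors known to act on receptor genes in myeloid cells, 7 were higher and 4 lower, with a median of 0.20. Mitf (2.69 ± 0.15) and Irf8 (2.27 ± 0.14) were higher and Klf4 (-2.39 ± 0.22) and Irf4 (-1.92 ± 0.14) lower. Spi1, named here for the motif above, differed by -0.28 ± 0.08 (adjusted p = 0.0129), a call that was lost after cyclic loess.

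TIM-4+ and TIM-4- LysoMac were compared to see whether the receptors differ between both macrophage groups. Of the 5 members tested 0 were called by limma, where 0.474% of 16027 genes were called, 0.206% as higher and 0.268% as lower. Flt3 came closest: its TIM-4+ arrays (5.27, 4.86, 5.25) all lay below the TIM-4- arrays, with a difference of -0.46 ± 0.12 (unadjusted p = 0.000742, adjusted p = 0.115), and it passed when arrays were weighted (adjusted p = 0.0397). Flt3 was the 1 member of 5 with an unadjusted p under 0.05, and each alternative was also a limma fit. The 95% confidence intervals of the others were -0.61 to 0.74 for Csf1r, -0.52 to 0.19 for Csf3r, -0.51 to 0.30 for Kit and -0.31 to 0.73 for Cx3cr1. With 3 arrays a side, differences inside those limits were not resolved. Csf2rb, read under the looser row match alone, was at -0.38 ± 0.10 in limma (unadjusted p = 0.00106, adjusted p = 0.145). None of the 5 ligands and 7 other receptor chains with a value was called by limma either, and their lowest unadjusted p was 0.427.

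**Figure D2:**
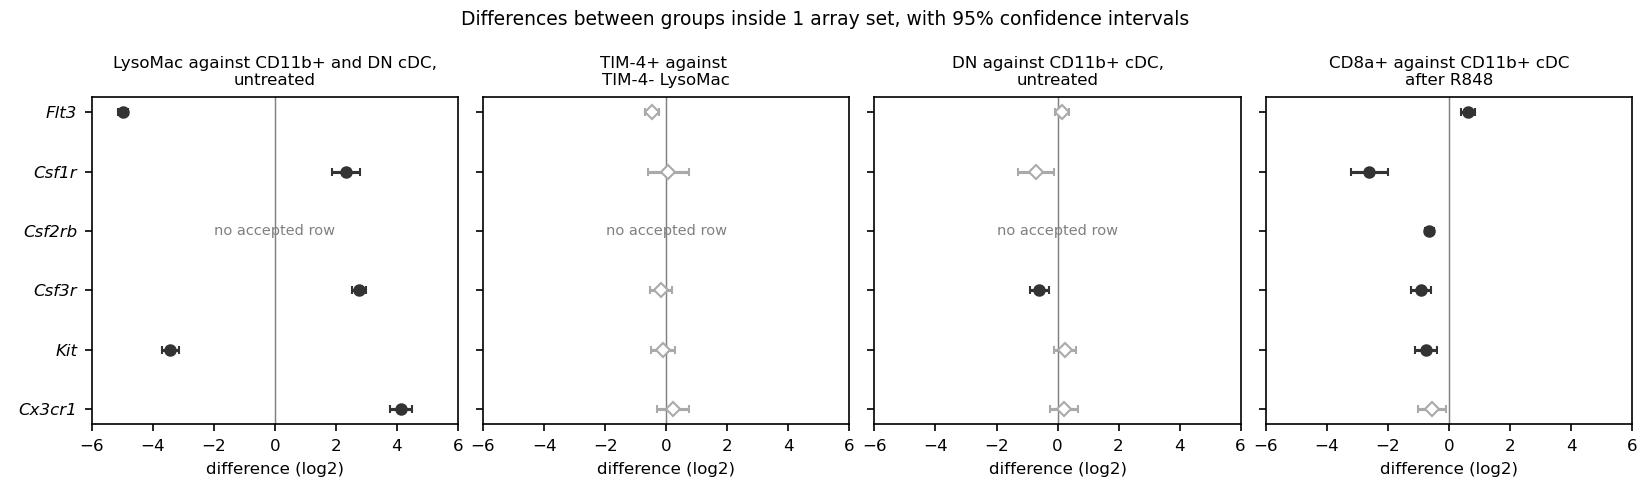
Difference in log2 signal (x axis) of each receptor in the 4 comparisons that lie inside 1 array set, with 95% confidence intervals; filled circles passed the test and open diamonds did not. LysoMac against CD11b+ and DN cDC spans -4.99 for Flt3 to 4.14 for Cx3cr1, and the other comparisons stay within -2.61 and 0.62.

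DN cDC were set beside CD11b+ cDC, the group they share the SIRPa gate with. Under the main row match Csf3r was the member that passed, lower in DN cDC by -0.60 ± 0.15 (adjusted p = 0.0242). So 1 of 5 members was called where 4.34% of 16027 genes were, 2.61% as higher and 1.73% as lower. That call was lost in 6 of 20 alternatives, among them the fit of both groups alone (adjusted p = 0.12) and those without CD11b+ replicate 1 or 5 or DN replicate 1 or 2 (adjusted p from 0.0516 to 0.122). Csf1r was lower on every DN array without passing, but it passed in the fit of both groups alone (-0.71, adjusted p = 0.0125). Flt3 (0.15 ± 0.10), Kit (0.25 ± 0.17) and Cx3cr1 (0.21 ± 0.23) overlapped between the groups. Csf2rb, read under the looser row match alone, was at -0.65 ± 0.09 (adjusted p = 5.9e-05). Ccr2 was also lower in DN cDC (-0.86 ± 0.14, adjusted p = 0.000539), as was Socs2 (-1.19 ± 0.27), a feedback inhibitor of cytokine receptors. The limit on the row of Ccr2 given above holds here too. Of the transcription factor list 0 of 15 were higher and 4 lower (2.61% and 1.73% of all genes), namely Runx1 (-1.41 ± 0.18), Cebpa (-1.12 ± 0.22), Mitf (-0.88 ± 0.20) and Irf8 (-0.82 ± 0.19).

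The ligands of the receptors were higher in DN cDC for 4 of 5 with a value, beside 2.61% of all genes. Kitl, which encodes stem cell factor, was higher by 0.55 ± 0.09 (adjusted p = 0.000262), Il34 by 0.53 ± 0.13 (0.0163), Csf1 by 0.49 ± 0.11 (0.0119) and Csf2, the GM-CSF gene, by 0.23 ± 0.07 (0.0499), while Cx3cl1, the fractalkine gene, was at 0.15 ± 0.18. The call of Csf2 was lost with a common median. All of these signals were low, with group means between 3.04 and 4.64 in both groups. Pdgfra (0.85 ± 0.10) and Pdgfrb (0.43 ± 0.08) were higher as well. Beside them, 9 of 10 stromal and endothelial markers were higher in DN cDC and 0 lower, by up to 4.97 ± 0.47 for the matrix gene Sparc and 4.95 ± 0.45 for Igfbp7, with the endothelial gene Emcn at 3.88 ± 0.24 and Fabp4 at 3.66 ± 0.41. Epithelial markers had 2 of 7 higher. The part of these markers in the ligand signals was not tested.

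**Figure D3:**
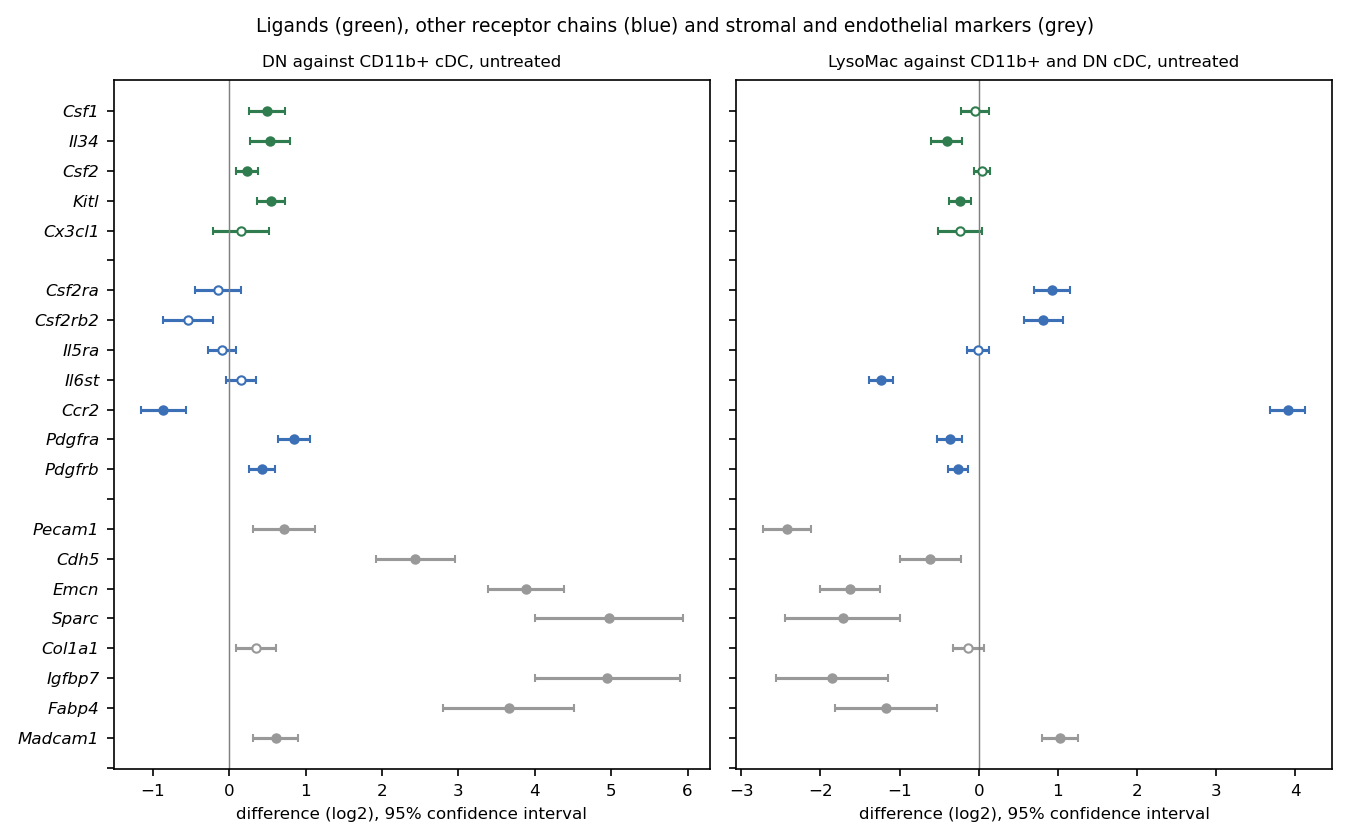
Difference in log2 signal (x axes, which differ in range) with 95% confidence intervals for the ligands (green), other receptor chains (blue) and stromal and endothelial markers not in those lists (grey); filled points passed the test. In DN against CD11b+ cDC the ligands lie between 0.15 and 0.55 and the stromal genes reach 4.97. In LysoMac against CD11b+ and DN cDC Ccr2 stands out at 3.90, from a row not accepted under stricter row matching.

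CD8a+ cDC, the cDC1 lineage, were set beside CD11b+ cDC in untreated mice, across array sets. Csf1r was 36.2-fold lower in CD8a+ cDC (-5.18 ± 0.29), Csf3r 3.55-fold lower (-1.83 ± 0.15) and Cx3cr1 3.51-fold lower (-1.81 ± 0.23). Relative to the median of all genes these were -4.99, -1.64 and -1.62. The row of Csf1r in the untreated CD8a+ set was not accepted under stricter row matching, so that alternative could not be run for it. Flt3 (-0.16 ± 0.10, adjusted p = 0.229) and Kit (-0.08 ± 0.17, adjusted p = 0.731) overlapped between the groups, and both small differences turned positive under each of 3 other scalings. So 3 of 5 members were called, all lower, where 47.8% of 13710 genes were called, 38.9% as lower and 8.86% as higher. The 95% interval of Flt3 was -0.37 to 0.06 and that of Kit -0.44 to 0.28.

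Of 6 macrophage markers 3 were lower in CD8a+ cDC, as Csf1r was, namely Lyz2 (-2.52 ± 0.80), Adgre1 (-1.99 ± 0.19) and Msr1 (-1.57 ± 0.36). This count is near the 38.9% of all genes called lower, and Mertk, Fcgr1 and Siglec1 were not called. The mean level of all 6 was 4.93 to 5.06 on CD8a+ arrays and 5.93 to 6.22 on CD11b+ arrays, while Mertk was low in both (3.66 and 3.45). Their part in the result was not tested. Csf2ra was lower in CD8a+ cDC by -0.71 ± 0.15, a call lost after cyclic loess and quantile normalization. Tyrobp, the adaptor also known as DAP12, was lower, at -1.62 ± 0.11, and Pik3cg, the catalytic subunit of PI3K gamma, by -1.37 ± 0.14. Socs2 (-2.75 ± 0.27), the phosphatase Ptpn1 (-2.26 ± 0.14) and Stat5a (-1.22 ± 0.16) were among 9 of 13 JAK-STAT genes called lower, beside 38.9% of all genes, and 7 or 8 were lower under 3 other scalings. The transcription factors Irf8 (3.13 ± 0.19) and Irf4 (-3.17 ± 0.19) were at opposite ends.

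In DN cDC against CD8a+ cDC the receptors of the LysoMac pattern were again lower in CD8a+ cDC. Csf1r was higher in DN cDC by 4.47 ± 0.32, Cx3cr1 by 2.02 ± 0.25 and Csf3r by 1.23 ± 0.17. Flt3 was called too (0.30 ± 0.12, adjusted p = 0.0415), but under a common median it was -0.02 (adjusted p = 0.885), and the call was lost in 11 of 18 alternatives, including those without DN replicate 1, 2 or 3 or CD8a+ replicate 2 or 3 (adjusted p from 0.0638 to 0.105). Kit was at 0.33 ± 0.19 (adjusted p = 0.177) and passed in the fit of both groups alone (adjusted p = 0.0197). This made 4 of 5 members called, all higher, beside 42.6% of 13710 genes, 33% as higher and 9.61% as lower. Both comparisons with CD8a+ cDC share the same 3 arrays.

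The R848 groups address how cDC change during stimulation through TLR7. In CD11b+ cDC Csf1r was 3.74-fold lower after R848 (-1.90 ± 0.29, adjusted p = 1.98e-05), Kit 3.68-fold lower (-1.88 ± 0.17, adjusted p = 2.11e-08), Csf3r 1.89-fold lower (-0.92 ± 0.15) and Flt3 1.49-fold lower (-0.58 ± 0.10). The R848 arrays of these 4 genes all lay below the untreated ones. Cx3cr1 was at -0.31 ± 0.23 (adjusted p = 0.289) with overlapping arrays. Thus 4 of 5 members were called, all lower, beside 41.2% of 16027 genes called, 23.4% as lower and 17.8% as higher.

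In CD8a+ cDC the response to R848 was led by Kit. Kit was 5.90-fold lower (-2.56 ± 0.17, adjusted p = 7.66e-11), with every R848 array more than 2 units below every untreated one. Csf2rb was higher by 0.71 ± 0.06 (adjusted p = 2.99e-06) and Cx3cr1 by 0.94 ± 0.23 (adjusted p = 0.00141), the latter with 1 R848 array inside the untreated range. Relative to the median of all genes these were 0.52 and 0.76. Flt3 (0.20 ± 0.10, adjusted p = 0.109) did not pass although its arrays did not overlap, and Csf3r was at -0.01 ± 0.15 with overlapping arrays. In all, 3 of 6 members were called, 2 higher and 1 lower, beside 57.3% of 16309 genes, 42.2% as higher and 15% as lower.

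Csf1r in CD8a+ cDC was at the threshold, 0.67 ± 0.29 (adjusted p = 0.0531), and its arrays varied most. Leaving out 1 array moved it in either direction. Without R848 replicate 3, which reads 6.25, it was 0.41 (adjusted p = 0.15), and without untreated CD8a+ replicate 1 it was 0.49 (adjusted p = 0.227). It passed without untreated CD8a+ replicate 3, which reads 5.10 (0.95, adjusted p = 0.0167), and without R848 replicate 4 (0.85, adjusted p = 0.0129) or 5 (0.84, adjusted p = 0.0162). It was 0.50 with a common median (adjusted p = 0.178) and 0.85 with array weights (adjusted p = 0.00841). Among the R848 arrays, replicates 3, 1 and 2 read 6.25, 5.81 and 5.00 and replicates 4 and 5 read 4.47 and 4.52. The mean of 6 macrophage markers on the same arrays was 5.45, 5.16, 5.14, 4.71 and 4.31, the same order but for the last pair. Its part in the spread of Csf1r was not tested.

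The difference between both responses was tested itself. The response of CD8a+ minus that of CD11b+ cDC was 2.57 ± 0.41 for Csf1r (adjusted p = 7.34e-05), 1.25 ± 0.32 for Cx3cr1 (adjusted p = 0.00501), 0.91 ± 0.21 for Csf3r and 0.78 ± 0.15 for Flt3, and -0.68 ± 0.24 for Kit (adjusted p = 0.0355). All 5 members were called, 4 higher and 1 lower, beside 33.6% of 13710 genes, 27.4% as higher and 6.15% as lower. Relative to the median of all genes the values for Csf1r and Flt3 were 2.36 and 0.57. Flt3 lost its call after quantile normalization and cyclic loess, Csf3r after quantile normalization, and Kit in 10 of 28 alternatives, each of which left out 1 array (adjusted p from 0.0502 to 0.0997): untreated CD11b+ replicate 1, 2 or 3, untreated CD8a+ replicate 1 or 2, R848 CD11b+ replicate 1 or 3, or R848 CD8a+ replicate 2, 4 or 5. Csf1r and Cx3cr1 kept theirs in all alternatives run, 27 for Csf1r and 28 for Cx3cr1. Stricter row matching was not among those of Csf1r, since it did not accept the row of Csf1r in the untreated CD8a+ set.

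**Figure D4:**
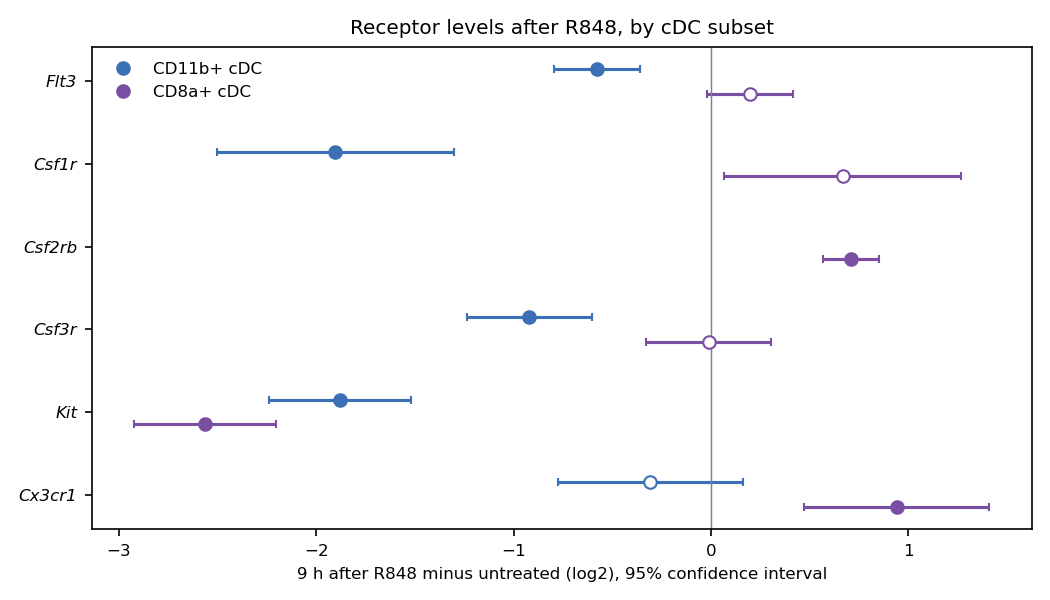
Difference in log2 signal between cDC taken 9 h after R848 and untreated cDC (x axis) with 95% confidence intervals, for CD11b+ cDC (blue) and CD8a+ cDC (purple); filled points passed the test, and Csf2rb has no value for CD11b+ cDC. Kit lies at -1.88 and -2.56, while Csf1r lies at -1.90 in CD11b+ cDC and 0.67 in CD8a+ cDC.

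Markers of other cells also differed after R848, and their counts are to be read against all genes. Of all genes 17.8% were higher and 23.4% lower in CD11b+ cDC, and 42.2% higher and 15% lower in CD8a+ cDC. In CD8a+ cDC the counts of neutrophil and of innate lymphoid and NK markers called higher are near the share of all genes. The same holds there for epithelial markers called lower. B cell markers were higher for 4 of 4 genes with a value in CD11b+ cDC, led by Ms4a1 (2.74 ± 0.28), and for 3 of 3 in CD8a+ cDC, led by Cd79a (3.85 ± 0.35). Their mean level was 5.83 to 6.57 on untreated and 8.02 to 8.70 on R848 arrays of CD11b+ cDC, and 4.33 to 5.01 against 6.40 to 7.39 in CD8a+ cDC. Their part in the receptor differences was not tested. T cell markers were lower for 3 of 3 genes in CD11b+ cDC and higher for 3 of 3 in CD8a+ cDC, where Thy1 lost its call with a common median. Epithelial markers were lower for 3 of 7 in CD11b+ cDC, namely Epcam (-2.22 ± 0.19), Cdh1 (-2.21 ± 0.25) and Krt8 (-1.22 ± 0.39), and for 1 of 6 in CD8a+ cDC, Epcam (-1.05 ± 0.19). Neutrophil markers were lower for 3 of 8 in CD11b+ cDC, led by Cxcr2 (-1.08 ± 0.13), and higher for 3 of 6 in CD8a+ cDC. Those 3 were S100a8 (2.59 ± 0.52), Mmp8 and Ngp, and the calls of Mmp8 and Ngp were lost after cyclic loess and quantile normalization. S100a9 had a mean of 7.00 in CD8a+ and 4.73 in CD11b+ cDC after R848. Of plasmacytoid dendritic cell markers, Ly6d was higher in CD11b+ (6.01 ± 0.35) and CD8a+ cDC (3.90 ± 0.35). Bst2 was higher in CD11b+ cDC (1.06 ± 0.17) and Pacsin1 in CD8a+ cDC (0.31 ± 0.11). Ccr9 was lower in both (-0.66 ± 0.14 and -3.49 ± 0.14), and Tcf4 was not called in CD11b+ cDC. The rows of Ly6d and Ccr9 were not accepted under stricter row matching in either untreated set. Of markers of innate lymphoid and NK cells, 3 of 6 were higher and 2 lower in CD11b+ cDC, with Il7r at 3.72 ± 0.19 and Nkg7 at -2.06 ± 0.38, and 2 of 4 were higher in CD8a+ cDC. The part of these markers was not tested either. Of cDC markers, 5 of 10 were lower and 2 higher in CD11b+ cDC, and 5 lower and 3 higher in CD8a+ cDC.

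After R848 both subsets lay in 1 array set and could be compared directly. Csf1r was 6.10-fold lower in CD8a+ cDC (-2.61 ± 0.29, adjusted p = 1.12e-06), Csf3r 1.89-fold lower (-0.92 ± 0.15), Kit 1.69-fold lower (-0.76 ± 0.17) and Csf2rb 1.56-fold lower (-0.64 ± 0.06), and Flt3 was 1.54-fold higher (0.62 ± 0.10). No arrays of these 5 genes overlapped. Cx3cr1 was at -0.56 ± 0.23 (adjusted p = 0.125) with overlapping arrays, and it passed without R848 CD11b+ replicate 1 (-0.78, adjusted p = 0.0414) or R848 CD8a+ replicate 1 (-0.69, adjusted p = 0.0436). Thus 5 of 6 members were called, 1 higher and 4 lower, beside 12.5% of 19938 genes, 5.76% as higher and 6.73% as lower. The same order of the subsets for Csf1r and Csf3r was seen in untreated mice, from other arrays.

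Among the ligands 0 of 7 were called between the R848 groups. The 7 were Flt3l (-0.17 ± 0.13), Csf1 (0.19 ± 0.11), Il34 (0.02 ± 0.13), Csf2 (0.13 ± 0.07), Csf3, the G-CSF gene (0.12 ± 0.09), Kitl (-0.02 ± 0.09) and Cx3cl1 (0.27 ± 0.18), and 0 of them had an unadjusted p under 0.05 in limma (lowest 0.0631, for Csf2). Of 8 other chains, Il6st (-0.98 ± 0.10) and Csf2rb2 (-0.51 ± 0.15) were lower in CD8a+ cDC, and Il3ra (0.17 ± 0.12) and Ccr2 (0.10 ± 0.14) were among the 6 that did not pass. Against untreated cells, Csf1 was higher after R848 in CD11b+ cDC (0.83 ± 0.11) and in CD8a+ cDC (0.47 ± 0.11, lost after cyclic loess), and Flt3l was lower in CD8a+ cDC (-0.37 ± 0.13). The other ligands called there, Csf2 and Cx3cl1 in CD8a+ cDC, lost their calls after cyclic loess and quantile normalization, Cx3cl1 also with a common median. Csf3 (0.49 ± 0.09) and Flt3l could not be fitted under cyclic loess or quantile normalization.

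Cblb and Inpp5d, which limit signalling from receptor kinases, were called in the same direction in both subsets after R848. Cblb was higher by 2.32 ± 0.12 in CD11b+ and 2.77 ± 0.12 in CD8a+ cDC, and Inpp5d, the lipid phosphatase SHIP1, was lower, at -1.11 ± 0.16 and -2.13 ± 0.16. Counts of the pathway lists are to be read against all genes, of which 23.4% were lower and 17.8% higher in CD11b+ cDC, and 15% lower and 42.2% higher in CD8a+ cDC. With a common median, the calls of all genes in CD8a+ cDC became 3474 lower and 3409 higher. Of the tyrosine kinase signalling list 12 of 19 were lower and 3 higher in CD11b+ cDC (median -0.49, of all genes -0.03), and 9 of 22 lower and 5 higher in CD8a+ cDC (median -0.12, of all genes 0.18). Fes (-1.26 ± 0.10), a kinase, and the adaptor Shc1 (-0.90 ± 0.22) were lower in CD11b+ cDC, and Dok1 (1.97 ± 0.23), a docking protein, and Pik3r1 (1.75 ± 0.10), the p85 alpha subunit of PI3K, were higher in CD8a+ cDC. The JAK-STAT list had 6 of 13 higher and 3 lower in CD11b+ cDC and 8 of 15 higher and 1 lower in CD8a+ cDC, with medians of 0.19 and 0.78. The count of higher genes in CD8a+ cDC is near the share of all genes. Socs2 had the largest difference of the list in both, at 2.74 ± 0.27 and 5.44 ± 0.27, with Stat3 at 0.81 ± 0.11 and 1.93 ± 0.11.

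Of the feedback and immediate targets of ERK, 6 of 13 were lower and 3 higher in CD11b+ cDC (23.4% and 17.8% of all genes), and 6 of 11 lower and 2 higher in CD8a+ cDC (15% and 42.2% of all genes). The medians of the list were -0.48 and -0.52. After cyclic loess 4 of 10 were lower and 3 higher in CD11b+ cDC, and with a common median 7 of 11 were lower and 2 higher in CD8a+ cDC. Egr1 was lower, at -1.92 ± 0.16 and -3.12 ± 0.16, and Egr2 was 16.0-fold lower in CD8a+ cDC. The inhibitor Spred1, first identified as a brake on Kit signalling, was higher by 1.51 ± 0.19 and 3.05 ± 0.19. In the Gi list Rgs18 was lower, at -2.96 ± 0.24 and -1.84 ± 0.24 and Gng10 at -1.40 ± 0.16 and -1.72 ± 0.16. Of the transcription factors 8 of 15 were lower and 2 higher in CD11b+ cDC, with Klf4 at -2.06 ± 0.29, Mitf at -1.60 ± 0.20, Spi1 at -0.92 ± 0.11 and Cebpa at -0.88 ± 0.22. In CD8a+ cDC 6 of 14 were lower and 5 higher, led by Fli1 (-2.48 ± 0.25), Irf4 (2.09 ± 0.19), Runx1 (-1.71 ± 0.18) and Irf8 (-1.45 ± 0.19). Spi1 was at -0.20 there (adjusted p = 0.131) and passed as lower under 3 other scalings. These genes share their untreated arrays, and their array sets, with the receptors.

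The genes whose 7 group means followed each receptor most closely were picked by Pearson correlation among 820 genes whose group means had an SD of at least 1. For Flt3 they were Ap1s3 (0.994), Nr4a2 (0.994), Nup210 (0.988) and Pclaf (0.984). For Kit they were Nr4a1 (0.993), Znrd1, Alox5ap, which is needed to make leukotrienes, and Chn2. Like Kit, Nr4a1 had lower means after R848: the group means of Nr4a1, an immediate early nuclear receptor, were 9.41 and 8.96 in untreated CD11b+ and CD8a+ cDC and 6.29 and 5.28 after R848. For Csf1r they were Snx18 (0.989), Dennd11, Lst1 and Lgals9, the galectin-9 gene. For Csf3r they were Mmp14 (0.999), a membrane metalloprotease, Kcnj10, Blvrb and Pla2g4a, and for Cx3cr1 Tpp1 (0.998), a lysosomal protease, Spaca9, Lrp8 and Gda. Csf3r and Cx3cr1 correlated with each other at 0.980 and with Flt3 at -0.923 and -0.953. These values describe 7 points that share arrays within each group and that contain the LysoMac and cDC contrast, and they carry no test.

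**Figure D5:**
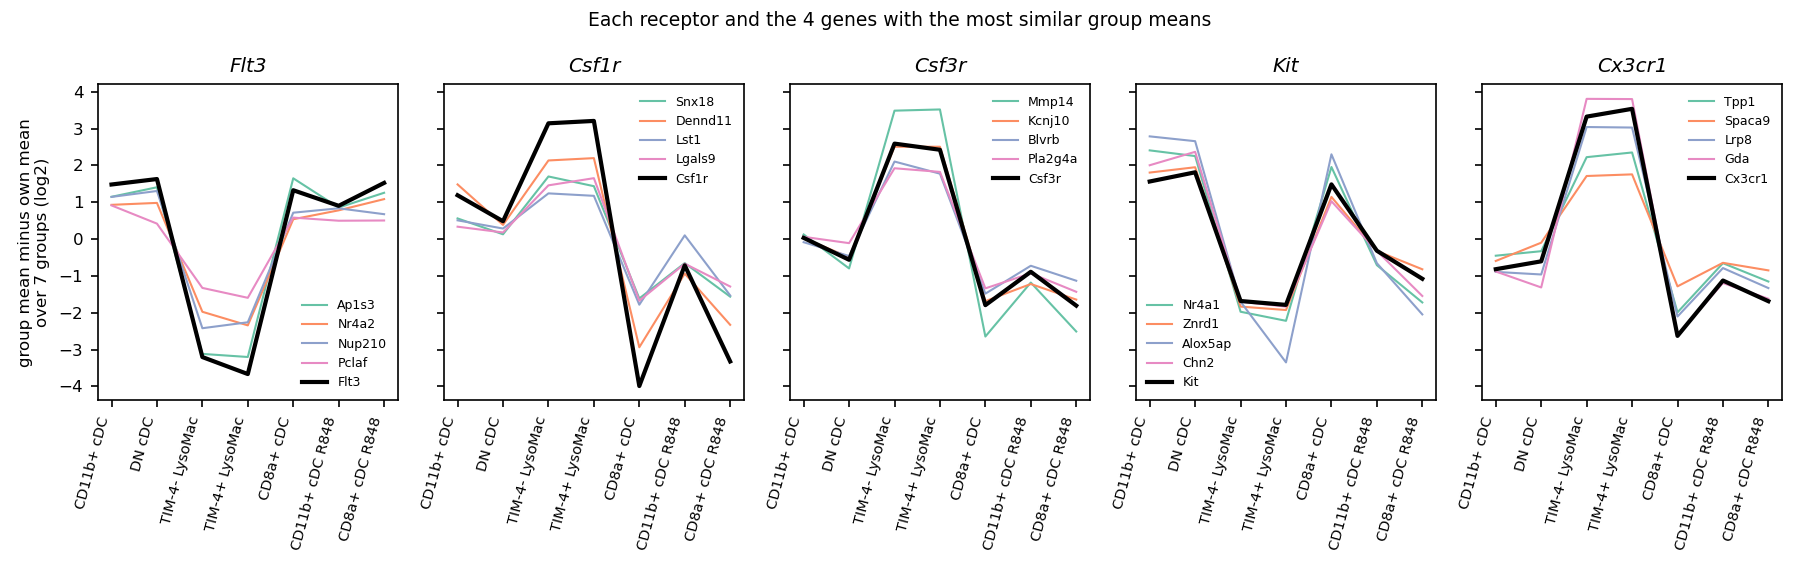
Group means minus the gene's own mean over 7 groups (log2, y axis) for each receptor (black) and the 4 genes with the highest Pearson correlation to it (colours), by group (x axis). Flt3 has its lowest means in LysoMac (5.59 and 5.13), and Kit is also low in both R848 groups (7.48 and 6.72).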

How the data were processed

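The authors' deposited values are log2 signals of 25 arrays, made with RMA in Affymetrix Expression Console 1.4.1 per the submitters' processing notes. For the probe annotation, a genome build is not given in the sources used here. Array columns came in 3 row orders, and row names fit the R848 arrays. Rows of both untreated sets were aligned to them by a monotone order match on level, and unmatched rows were left out: of 28939 aligned rows, 22160 and 22674 were accepted. A control with rolled columns gave 77 and 41. Genes were taken from rows with 1 symbol. A gene with several such rows, Socs2 among them, was read from the row with values on the most arrays. Ties went to the row with the higher mean.

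All 7 groups were fitted together in limma 3.58.1 (R 4.3.3), without a replicate term, and p-values were adjusted by Benjamini-Hochberg over all genes tested; a gene was called at an adjusted p under 0.05. Errors after ± are standard errors. The pipeline was tested on simulated data. In 5 simulated alignments up to 1.455% of accepted rows had a wrong partner. Of strongly changed rows as few as 76.4% were given the right partner. The members and gene lists were chosen with earlier results of these data known. Genes named from a pathway list are the up to 4 called members with the largest differences, and others are named for a stated reason. The series' design text calls the replicates independent, and their number limits the precision. Alternatives were other scalings, filters, weights, row rules and leaving out each array. Equal replicate numbers were not used to pair arrays in the main fit, and whether they mark arrays that belong together was not settled.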

Additional observations from a re-analysis of the deposited data

Results flagged for a closer look

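Among 11 sets of 5 arrays looked at for a single array far from the others, 2 had one, and chance gives about 1 in 20. Groups of 3 arrays were not looked at. Flt3 in CD8a+ cDC after R848 had a highest array of 10.57, next to 10.28, with the lowest at 10.22. Csf3r in the same group had a lowest array of 3.86, next to 4.29, with the highest at 4.44. The R848 response differed between CD8a+ and CD11b+ cDC, by the test of the difference itself, for 5 receptors: by 2.57 for Csf1r, 1.25 for Cx3cr1, 0.91 for Csf3r and 0.78 for Flt3, and by -0.68 for Kit. Each of these values crosses array sets.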

How the results depend on the processing

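Of 52 receptor results 35 were called, 30 of them the same way in every alternative run and 5 in some; of 17 not called, 5 were called in some. Flt3 in DN against CD8a+ cDC reversed with a common median (-0.022, adjusted p = 0.885). Flt3 in the difference of responses was 0.52 after cyclic loess and 0.37 after quantile normalization, and Csf3r there was 0.51 after quantile normalization, all uncalled. Counts of called genes moved as follows. With dim genes left out they were 4091 (CD8a+ against CD11b+ cDC, 6555 as reported), 3858 (DN against CD8a+ cDC, 5840), 5395 (R848 in CD8a+ cDC, 9339) and 2918 (difference of responses, 4604). With stricter row matching they were 3354 (LysoMac against all cDC, 5865), 3787, 3357 and 2627 for CD8a+ against CD11b+ cDC, DN against CD8a+ cDC and the difference of responses. With the compared groups alone they were 29 for TIM-4 (76 as reported) and 321 for DN against CD11b+ cDC (696). R848 in CD8a+ cDC gave 5837 after cyclic loess and 6049 after quantile normalization, and the difference of responses 3020 with a common median. Without 1 array, TIM-4 gave 46 to 77 (46 without TIM-4- replicate 3, 49 without replicate 1) and DN against CD11b+ cDC 455 to 879 (455 without DN replicate 2). A common median turned higher and lower calls from 3666 and 2199 to 2332 and 3106 (LysoMac against all cDC), 1215 and 5340 to 3220 and 2040 (CD8a+ against CD11b+ cDC), 419 and 277 to 321 and 499 (DN against CD11b+ cDC), 4522 and 1318 to 1720 and 4567 (DN against CD8a+ cDC), 2851 and 3755 to 3876 and 2956 (R848 in CD11b+ cDC), 6885 and 2454 to 3409 and 3474 (R848 in CD8a+ cDC), and 3761 and 843 to 1320 and 1700 (difference of responses). Fewer genes or arrays enter the filters, stricter matching and leave-outs; for the other settings the cause was not tested. Of 65 same-numbered pairs of arrays 11 correlated above 0.1, with a median of -0.015 against -0.0025 for other numbers. With so few arrays per group this cannot settle whether equal numbers mark arrays that belong together. With the replicate block DN against CD11b+ cDC gave 468 genes, and Csf3r there had an adjusted p of 0.096. Csf1r in the R848 response of CD8a+ cDC was then 0.89 (adjusted p = 0.0165).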
